A study of Mus musculus with 12 samples.

Results

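The genes described here make cholesterol and fatty acids or set the output of those pathways. They are 32 genes fixed by name, 20 in a sterol arm and 12 in a fatty acid arm, and were found by gene symbol among the 19091 genes of the F1 table and the 26023 genes of the F3 table. Every member was present in both tables and passed the filter on low counts in both. Polyadenylated RNA was profiled in prostates of male mice, F1 males carried by their mothers during dosing and F3 males bred on from that line. Dosed females of the F0 generation received chlordecone, an organochlorine insecticide also named kepone, at 100 µg/kg/day from E6.5 to E15.5 (days of embryonic development). Each generation has its own control group, labelled as such, and the labels give no vehicle, strain or age and do not say whether a sample is 1 animal or a pool, or whether samples share a litter. The labels list 4 groups of 3, and 11 of 12 libraries are used, 2 control and 3 chlordecone libraries in F1 and 3 of each in F3, with F1 control 3 not analysed here. All p-values therefore measure only the spread between these samples, which may be technical.

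Cholesterol is built from acetyl-CoA through mevalonate, farnesyl diphosphate, squalene and lanosterol, and fatty acids from the same acetyl-CoA through malonyl-CoA, followed by elongation and desaturation. Transcription of both pathways is driven by the SREBP factors, encoded by Srebf2 (mainly sterol genes) and Srebf1 (mainly fatty acid genes), which are held in the endoplasmic reticulum by Insig proteins when sterols are plentiful. The prostate epithelium is a lipid-making tissue in which androgens stimulate these genes, and adipocytes, Schwann cells and epididymal epithelium are other strong users of parts of the pathways.

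The sterol genes shared a promoter feature that the choice of members did not use. RefSeq promoter windows (GRCm38.p6, 250 bases before to 50 after a start site) were matched by symbol for 25 of the 32 members, and Fdps, Fdft1, Sqle, Stard4, Scd1, Scd2 and Fads1 had no entry. Searched on both strands, the CCAAT box (CCAAT or its complement ATTGG), the binding motif of NF-Y, a known partner of the SREBP factors, was in at least 1 window of 16 of 16 sterol genes and of 6 of 9 fatty acid genes, against 41.1% of all 27025 genes in the promoter table. The sterol regulatory element, searched as TCACNCCAC, was in the window of 1 sterol gene, Hmgcs1, and of 0 fatty acid genes, against 1.44% of all genes. These matches are descriptions of letters in a window and not of binding. The 250 bases before the start site are printed 5′ to 3′ on the gene's strand for 3 members, with both motifs in capitals: Hmgcs1 because it carries both motifs, Ebp because it stood lowest against controls among sterol genes in F1 by fitted change, and Fasn because it heads the fatty acid arm and was close to its controls. They lie at chr13:119690101-119690350 (plus strand), chrX:8193513-8193762 (minus strand) and chr11:120824548-120824797 (minus strand).
Hmgcs1: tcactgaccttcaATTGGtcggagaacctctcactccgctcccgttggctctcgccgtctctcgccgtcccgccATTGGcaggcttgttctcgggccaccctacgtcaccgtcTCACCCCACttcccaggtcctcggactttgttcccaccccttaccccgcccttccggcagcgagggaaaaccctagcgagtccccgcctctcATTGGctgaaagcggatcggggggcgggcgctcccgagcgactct
Ebp: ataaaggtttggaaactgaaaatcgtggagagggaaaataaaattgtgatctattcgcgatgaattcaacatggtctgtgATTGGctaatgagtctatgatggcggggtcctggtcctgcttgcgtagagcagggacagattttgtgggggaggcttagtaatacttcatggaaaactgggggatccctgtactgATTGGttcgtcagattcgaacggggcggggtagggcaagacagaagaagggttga
Fasn: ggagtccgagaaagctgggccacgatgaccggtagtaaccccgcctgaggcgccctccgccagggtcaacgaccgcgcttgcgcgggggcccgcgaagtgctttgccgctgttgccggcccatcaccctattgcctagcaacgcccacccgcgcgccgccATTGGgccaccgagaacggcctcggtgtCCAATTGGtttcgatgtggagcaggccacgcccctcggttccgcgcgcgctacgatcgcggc
In Hmgcs1 the sterol element begins 137 bases before the start site, between CCAAT boxes at 176 and 45 bases. Ebp has CCAAT boxes at 170 and 55 bases, and Fasn has 1 at 90 bases and an overlapping pair on opposite strands at 62 and 59 bases. The window of Fads2, the member with the largest fitted F1 change, held no match to either motif.

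Totals ran from 17228539 to 28061760 counts in F1 libraries and from 71672418 to 114762135 in F3 libraries. Levels are in CPM, the count as a share of the TMM-scaled library size, and fold changes are log2, chlordecone over control, from edgeR. The lowest member count in any library was 14 (Acacb) in F1, just above the filter's minimum of 10, and 108 (Elovl6) in F3. Pbsn, Tgm4 and other prostate products fixed as a list summed to between 52111 and 101725 CPM in F1 and between 86159 and 104175 CPM in F3, so the labelled tissue was present in every library. In F1 all 5 prostate markers tested had a lower fitted value after chlordecone (median log2 fold change -0.43), and the list's median log2 ratio to its level in controls (0.5 CPM added) came to -0.61, -1.08 and -0.94 for chlordecone 1, 2 and 3. The F1 libraries also stood apart in markers of other tissues: vas deferens and epididymis markers (6 of 7 in the table) summed to 28.9 and 24.8 CPM in controls 1 and 2 and to 44292, 109 and 13931 CPM in chlordecone 1, 2 and 3. Akr1b7 and Crisp1 carried that sum, while Lcn5, Adam7, Rnase9 and Cst8 were at 0 in control 2, Rnase9 in control 1 and Lcn5 in chlordecone 2. Smooth muscle markers (6 of 6) summed to 3775 and 3689 CPM in the controls, against 10959, 4272 and 6910 CPM, and urothelium markers (6 of 6) to 28.7 and 21.0 CPM, against 74.2, 14.6 and 73.6 CPM. Seminal vesicle markers (7 of 7) summed to 118370 and 120988 CPM, against 186976, 429994 and 528818 CPM, but did not move together: the same median ratio came to -0.47, 1.38 and -0.98, and 4 of the 7 were lowest in chlordecone 3. Adipocyte markers (10 of 11) summed to 48.8 and 51.1 CPM in the controls and to 121, 330 and 93.5 CPM in chlordecone 1, 2 and 3, with 0 markers at a count of 0. The median ratio came to 0.17, 1.62 and 0.40, and 4 of the 10 were lowest in chlordecone 3. Schwann cell markers (6 of 7) summed to 36.9 and 40.2 CPM in the controls, against 62.0, 176 and 66.4 CPM. Their median ratio came to -0.12, 0.97 and -0.75, and 4 of the 6 were lowest in chlordecone 3. Leukocyte markers (5 of 6) summed to 26.9 and 23.9 CPM, against 51.9, 26.3 and 273 CPM, with a median ratio of -0.13, 0.30 and 1.24. In this bulk tissue, more cells of a type and more RNA per cell cannot be told apart.

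Per length of exon, the arms covered a wide range in unexposed prostate. In F3 controls Scd2, a stearoyl-CoA desaturase, stood highest at 101 ± 24.97 CPM per kb (SD, n = 3), and its lowest control (74.0) was above the highest control of any other member. Ebp, the sterol isomerase, followed at 37.2 ± 9.47 CPM per kb and Scd1, the sister desaturase, at 35.2 ± 11.3, and these overlapped between libraries. Acly, which makes cytosolic acetyl-CoA from citrate, was at 26.4 ± 5.16 CPM per kb. Acacb and Elovl6 were lowest, at 0.268 ± 0.0426 and 0.238 ± 0.0284 CPM per kb, and their ranges overlapped too. Among F1 controls Ebp ranked first at 26.1 ± 3.32 CPM per kb (SD, n = 2), ahead of Scd2 at 16.9 ± 1.54 and Hmgcs1 at 16.8 ± 1.92, which did not differ beyond their spread. Here Acaca and Acacb, the acetyl-CoA carboxylases, were lowest at 0.152 ± 0.0714 and 0.116 ± 0.0562 CPM per kb. The tables of the generations may have been made by different steps. Their libraries also differed in tissue markers: seminal vesicle markers summed to 118370 and 120988 CPM in F1 controls 1 and 2. In F3 controls 1, 2 and 3 the same markers summed to 47.6, 70.6 and 10.6 CPM. The levels are therefore described side by side only. The length is the union of all annotated exons, which understates genes with long rare exons.

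**Figure D1:**
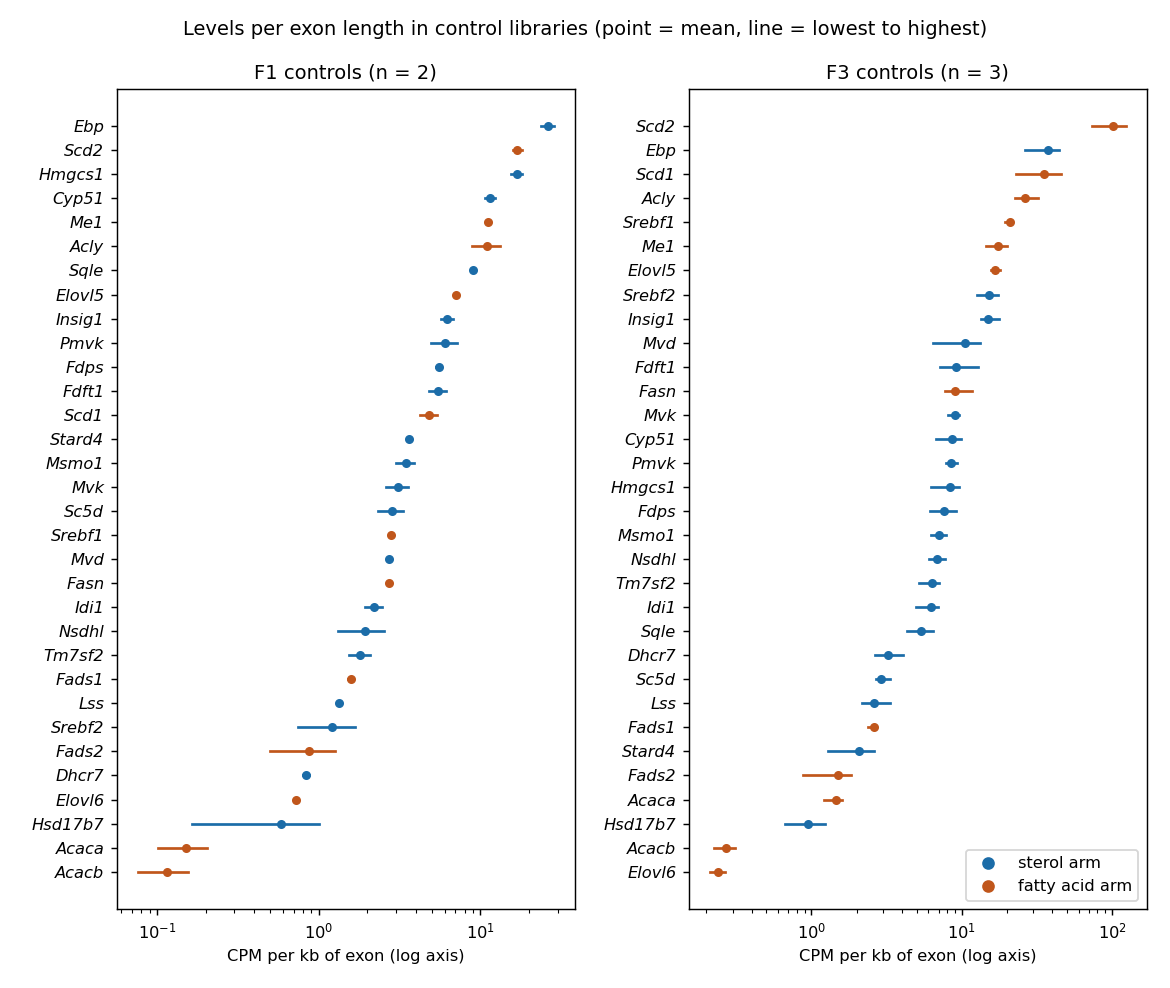
Level per kb of exon of the 32 members in F1 controls and F3 controls (log axis, point for the mean, line from the lowest to the highest library, sterol arm in blue and fatty acid arm in orange). Scd2 at 101 CPM per kb leads the F3 controls and Ebp at 26.1 CPM per kb the F1 controls.

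The F1 comparison asks whether these transcripts differ after exposure before birth. By the quasi-likelihood test of edgeR, Benjamini-Hochberg adjusted over all genes, 0 of 32 members passed, where 5 of 17804 genes (0.0281%) did, 0.0112% higher and 0.0169% lower. DESeq2 called 6 members and an unadjusted p under 0.05 in edgeR took in 8. The fatty acid arm nevertheless sat high: 11 of 12 members were higher and 1 lower, with a median log2 fold change of 0.77, against 0.02 over all genes. Scaled by total counts the median was 0.51, with 9 higher and 3 lower. Groups did not overlap for 7 fatty acid members, all higher, while 16.2% of all genes were higher without overlap. An unadjusted p under 0.05 was reached by 6 of the 12, all higher, against 7.93% of all genes in that direction. The sterol arm was even, with 10 members higher and 10 lower and a median of 0.06, or -0.21 when libraries were scaled by total counts, which moved the median of all genes to -0.24. Of the 20 sterol members, 4 did not overlap (2 higher, 2 lower), against 31.3% of all genes in either direction, and 2 had an unadjusted p under 0.05 (Fdps higher, Ebp lower), against 7.93% higher and 3.6% lower among all genes.

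**Figure D2:**
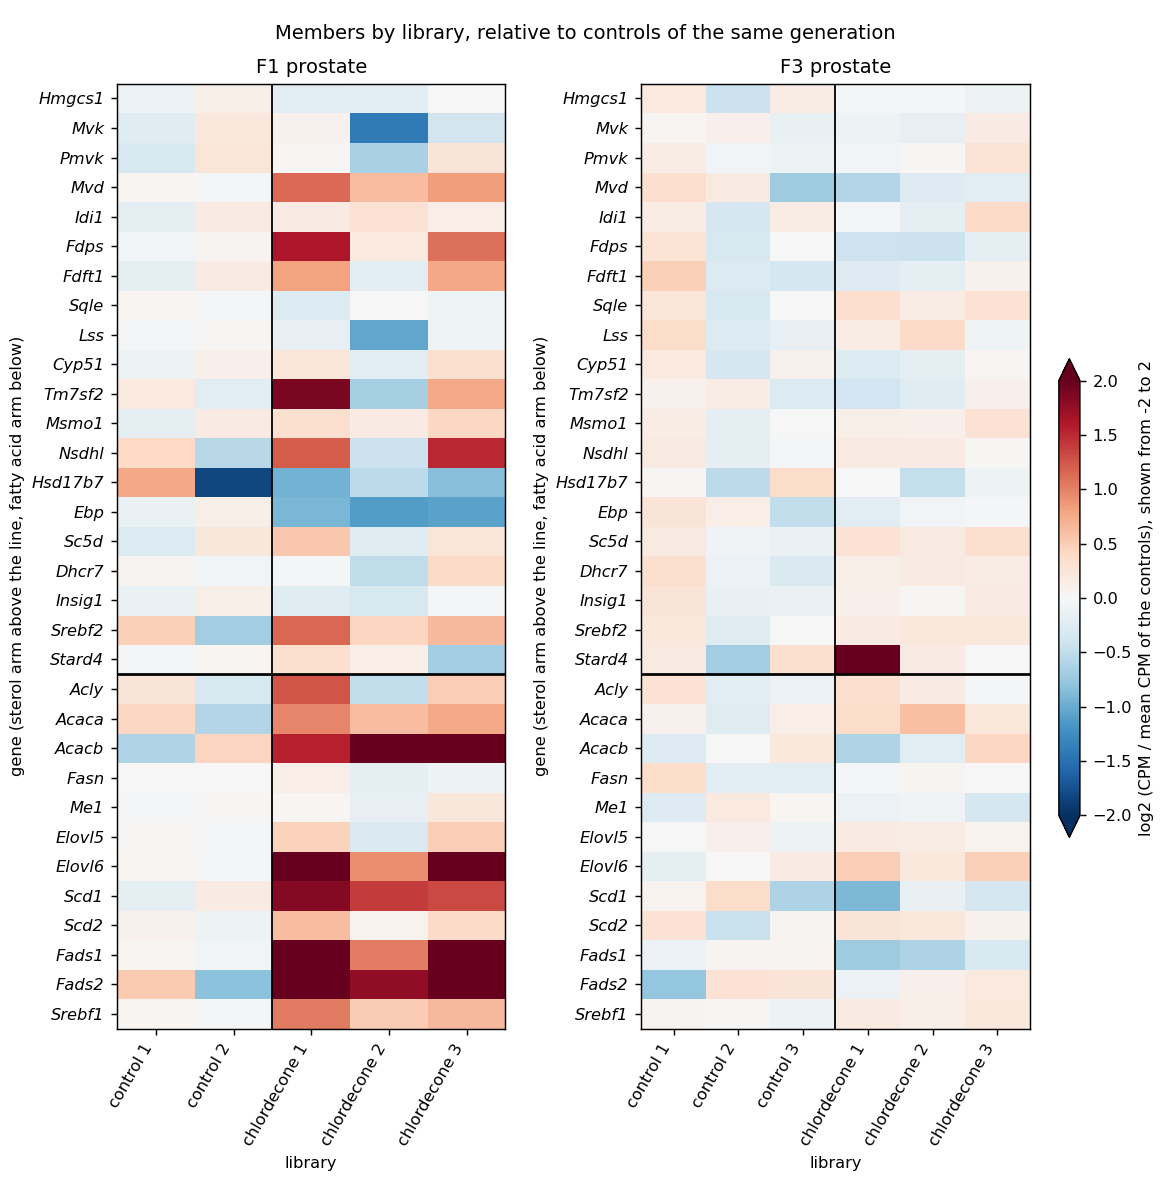
Each library's CPM relative to the mean of the controls of its generation, as log2, for the 20 sterol members above the line and the 12 fatty acid members below it, with F1 left and F3 right. Colour is capped at -2 and 2. Red at the cap is in F1 chlordecone 1 and 3 for Fads1, Fads2 and Elovl6 and in chlordecone 2 and 3 for Acacb, and the F3 panel is pale apart from Stard4 in chlordecone 1.

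The polyunsaturated fatty acid desaturases showed the widest differences. Fads2, which starts the desaturation of essential fatty acids, was at 4.14 and 1.64 CPM in F1 controls 1 and 2 and at 396, 9.92 and 88.3 CPM in chlordecone 1, 2 and 3. All 3 chlordecone libraries lay above both controls, but the lowest of them was far nearer to the controls than to the highest. The fitted log2 fold change was 5.83 (SE 1.49, edgeR adjusted p = 0.226). Fads1, which acts later on the same fatty acids, had 7.86 and 7.36 CPM in controls 1 and 2, and 238, 15.49 and 67.1 CPM in chlordecone 1, 2 and 3. The order of the libraries was the same as for Fads2, and the fitted change was 3.81 (SE 1.03, edgeR adjusted p = 0.245). The pair are neighbours on chromosome 19 in GRCm38, Fads2 from 10062765 to 10101746 on the minus strand and Fads1 from 10182888 to 10196877 on the plus strand. Fads3, a related gene at 10041569 to 10060110 on the other side of Fads2, was at 2.75 ± 0.182 CPM in controls (SD, n = 2) and at 4.92 ± 1.33 CPM in chlordecone libraries (n = 3).

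Elovl6, which elongates palmitate, followed the same order of libraries. It was at 4.82 and 4.55 CPM in F1 controls, against 40.6, 8.89 and 20.5 CPM in chlordecone 1, 2 and 3, a fitted change of 2.32 (SE 0.61, edgeR adjusted p = 0.231). Elovl6 overlaps numbered gene models on both strands, so its reads are uncertain. For these 3 genes chlordecone 1 was highest, chlordecone 3 second and chlordecone 2 nearest to the controls, which is also the order of the summed vas deferens and epididymis, smooth muscle and urothelium markers above. The part of these tissues in the result was not tested. In an alternative chosen after seeing the data, with chlordecone 2 as the sole exposed library, the log2 changes of Fads2, Fads1 and Elovl6 were 1.78, 1.02 and 0.92. These are given with no test, since the exposed arm is then 1 library.

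Scd1 differed more evenly. This desaturase makes monounsaturated fatty acids and was at 20.7 and 26.2 CPM in F1 controls, against 83.5, 61.6 and 58.8 CPM in chlordecone 1, 2 and 3. The lowest chlordecone library was above the highest control, and the fitted change was 1.54 (SE 0.29, edgeR adjusted p = 0.159), the smallest adjusted p of any member. Against chlordecone 2 alone the change was 1.39. Scd2, also on chromosome 19, was at 98.3 and 86.4 CPM in controls and 142, 97.5 and 120 CPM in chlordecone libraries, with groups overlapping. How reads matching both desaturases were counted is not given in the sources used here. The summed adipocyte markers were higher in all 3 chlordecone libraries, though not marker by marker, and highest in chlordecone 2, where Scd1 was intermediate. Their part was not tested.

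Among the enzymes that make malonyl-CoA and palmitate, the mitochondrial-side carboxylase stood out. Acacb was at 0.734 and 1.5 CPM in F1 controls, against 3.29, 5.73 and 7.13 CPM in chlordecone 1, 2 and 3, a fitted change of 2.26 (SE 0.67, edgeR adjusted p = 0.280), with no overlap. The control values rest on 14 and 32 counts. Acaca, the cytosolic carboxylase that feeds synthesis, was at 3.46 and 1.73 CPM in controls and at 5.11, 3.98 and 4.37 CPM in chlordecone libraries, without overlap and with a fitted change of 0.79 (SE 0.57). Each carboxylase shares bases with a predicted gene model, which leaves its reads uncertain. Fasn, the fatty acid synthase itself, was at 29.8 and 29.6 CPM in controls and at 32.7, 25.8 and 27.7 CPM in chlordecone libraries, a change of -0.05 (SE 0.25). Me1, malic enzyme, which supplies NADPH, had a change of 0.04 (SE 0.25), and Elovl5, an elongase of polyunsaturated chains, of 0.26 (SE 0.31). Acly was at 69.5 and 46.6 CPM in controls and at 139, 41.2 and 81.6 CPM in chlordecone libraries, which overlapped. The regulator Srebf1 was at 16.2 and 15.3 CPM in controls and at 32.5, 22.3 and 24.7 CPM in chlordecone libraries, 1.68-fold by the means (log2 fold change 0.75, SE 0.28, edgeR adjusted p = 0.367). Srebf1 did not overlap between groups, and its reads are uncertain because Rai1 overlaps it from the opposite strand.

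**Figure D3:**
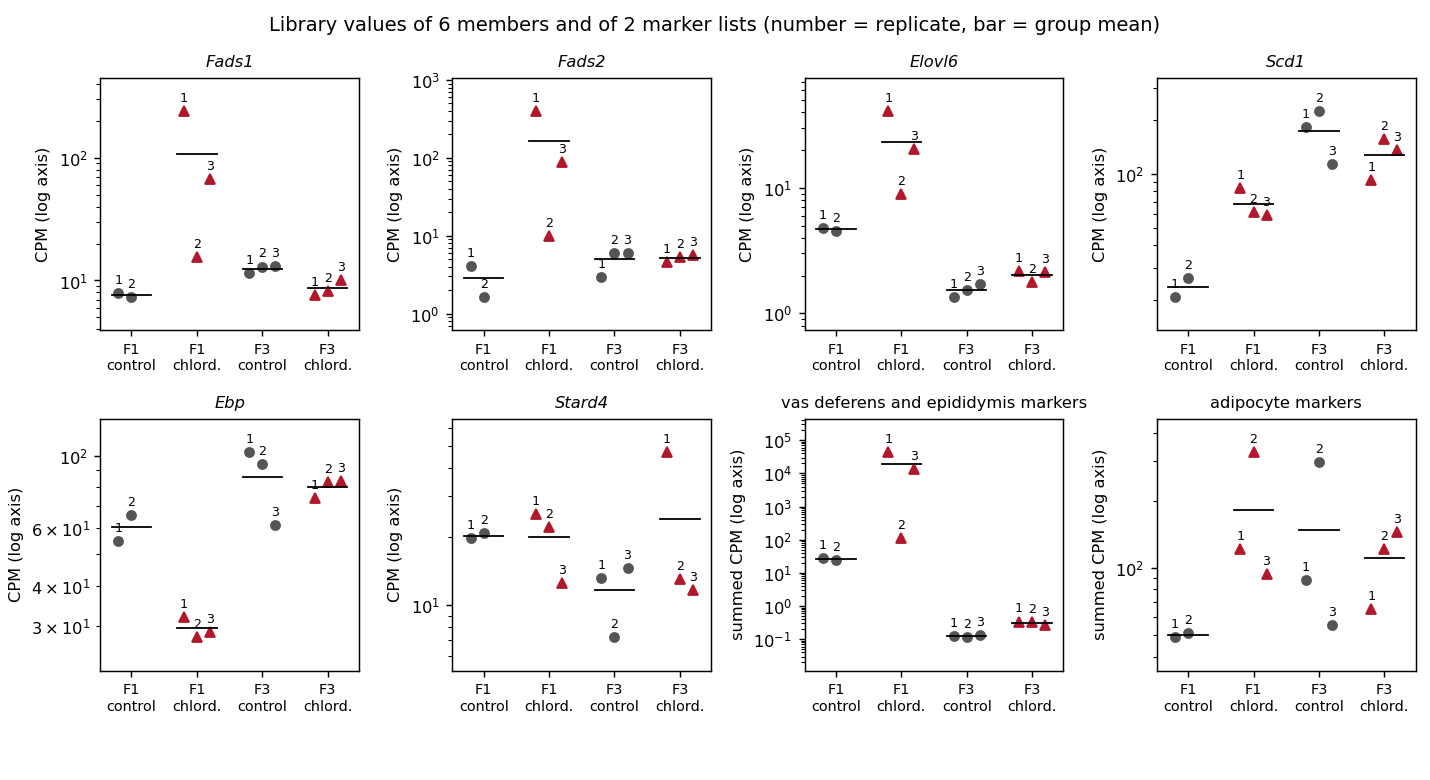
CPM by library (log axis) for 6 members and summed CPM for vas deferens and epididymis markers and for adipocyte markers, with replicate numbers, circles for controls, triangles for chlordecone and a bar at each group mean. In F1, Fads1, Fads2 and Elovl6 take the order chlordecone 1, 3, 2, while Ebp lies below both controls in all 3 chlordecone libraries.

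In the sterol arm, Ebp was the member with the smallest p. It converts the double bond of late sterol intermediates and was at 54.9 and 65.7 CPM in F1 controls, against 32.2, 27.8 and 28.9 CPM in chlordecone 1, 2 and 3. The chlordecone libraries lay close together and below both controls, with a fitted change of -1.03 (SE 0.24, edgeR adjusted p = 0.202). Against chlordecone 2 alone the change was -1.12. The prostate markers also had a negative median log2 ratio to controls in these libraries (-0.61, -1.08 and -0.94 for chlordecone 1, 2 and 3). Their summed CPM in chlordecone 1 and 3 nevertheless lay between those of the controls. The part of the prostate epithelium in the Ebp values was not tested. Ebp lies on chromosome X from 8185329 to 8193512 in GRCm38 and overlaps no other gene model.

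Early sterol enzymes showed no common direction. Fdps, farnesyl diphosphate synthase, was at 22.5 and 24.2 CPM in F1 controls, against 71.7, 26.8 and 50.3 CPM in chlordecone 1, 2 and 3, without overlap (log2 fold change 1.09, SE 0.41, edgeR adjusted p = 0.366). Its library order was that of the Fads genes, and against chlordecone 2 alone its change was 0.20. Mvd, mevalonate diphosphate decarboxylase, was at 5.24 and 4.92 CPM in controls and at 11.2, 7.80 and 9.02 CPM in chlordecone libraries, again without overlap (0.88, SE 0.38, edgeR adjusted p = 0.437). Predicted gene models overlap Fdps and Mvd, which leaves their reads uncertain. Hmgcs1, which makes HMG-CoA, was at 70.8 and 83.3 CPM in controls and at 66.1, 66.4 and 76.9 CPM in chlordecone libraries, and Sqle, the squalene epoxidase, at 51.2 and 48.6 CPM and at 41.2, 49.6 and 47.2 CPM. Both overlapped between groups, and their fitted changes were -0.14 (SE 0.25) and -0.12 (SE 0.24). Lss, lanosterol synthase, was lower in each chlordecone library (14.1 and 14.6 CPM against 12.7, 6.98 and 13.5 CPM), though chlordecone 1 and 3 were just under the controls.

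The remaining sterol members overlapped between the F1 groups. Changes of the mevalonate kinases Mvk and Pmvk were -0.44 and -0.07, of the isomerase Idi1 0.19 and of squalene synthase Fdft1 0.52. Those of the enzymes that trim and reduce lanosterol were 0.13 for Cyp51, 1.01 for Tm7sf2, 0.30 for Msmo1, 0.98 for Nsdhl and -0.76 for Hsd17b7, which ranged from 5.13 CPM in control 1 to 0.844 CPM (18 counts) in control 2. The last steps, Sc5d and Dhcr7, had changes of 0.21 and -0.0024. Srebf2 had 0.77, with control 1 and 2 at 12.1 and 5.34 CPM, Insig1 -0.19, and Stard4, an intracellular cholesterol carrier, -0.02. Vps51 overlaps Tm7sf2 on the same strand, and Akap9 and Ctsb overlap Cyp51 and Fdft1 from the opposite strand. Idi1 and Srebf2 share bases with predicted gene models. The reads of these members are uncertain.

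DESeq2's Wald test, run as an alternative, called 6 members in F1: Fads2 (adjusted p = 0.00842), Fads1 (adjusted p = 0.0488), Elovl6 (adjusted p = 0.00714), Scd1 (adjusted p = 0.000163) and Acacb (adjusted p = 0.0307) higher, and Ebp (adjusted p = 0.00881) lower, where it called 4.12% of all genes, 3.14% higher and 0.974% lower. Without chlordecone 2, edgeR passed 9 members (Fads1, Fads2, Elovl6, Scd1, Srebf1, Fdps, Fdft1 and Tm7sf2 higher, Ebp lower). It then passed 2604 of all 17394 genes tested, 1671 higher and 933 lower. Without any other single F1 library it passed 0 members.

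**Figure D4:**
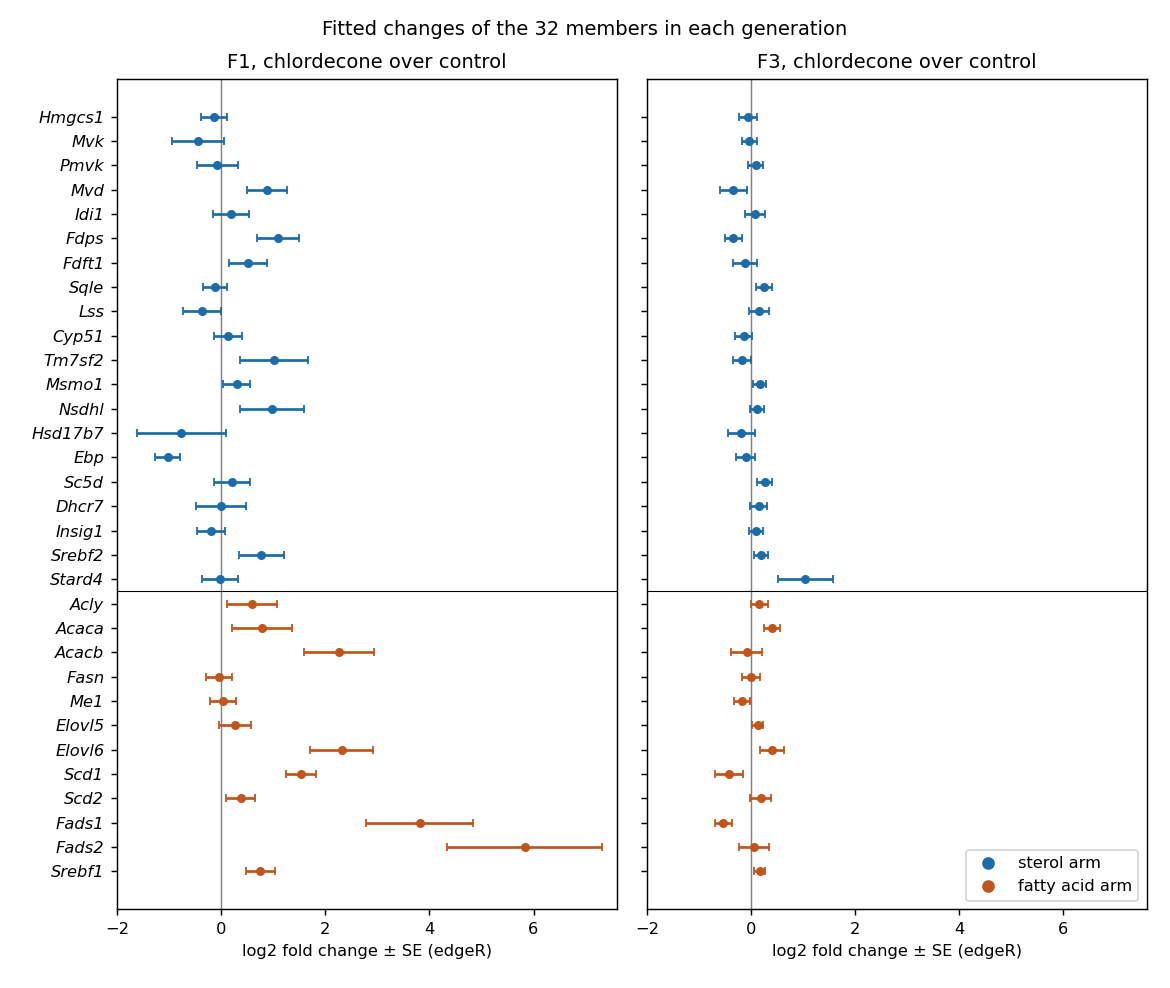
Fitted log2 fold change with its standard error (edgeR) for every member in F1 (left) and F3 (right), sterol arm in blue and fatty acid arm in orange, on 1 scale. F1 values run from -1.03 (Ebp) to 5.83 (Fads2), and F3 values from -0.53 (Fads1) to 1.04 (Stard4).

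The F3 comparison asks whether the same transcripts differed in descendants that were not themselves dosed. Values lay much closer together: the highest library was under 2-fold above the lowest for 18 of 20 sterol and 9 of 12 fatty acid members, against 9 of 20 and 4 of 12 in F1. With edgeR 0 of 32 members passed, where 10 of 16766 genes (0.0596%) did, 0.0239% higher and 0.0358% lower. DESeq2 also called 0 members, where it called 1.49% of all genes, 0.681% higher and 0.806% lower. The lowest adjusted p of a member was 0.397 with edgeR and 0.128 with DESeq2, both Fads1. An unadjusted p under 0.05 was reached by 2 members, Acaca higher and Fads1 lower, against 10.6% of all genes, 4.97% higher and 5.64% lower. The median log2 fold change was 0.09 for sterol members (11 higher, 9 lower) and 0.10 for fatty acid members (8 higher, 4 lower), against -0.01 over all genes.

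Fads1 was at 11.49, 13.0 and 13.0 CPM in F3 controls 1, 2 and 3 and at 7.64, 8.17 and 10.2 CPM in chlordecone 1, 2 and 3. The groups did not overlap, and chlordecone was the lower one (log2 fold change -0.53, SE 0.16, edgeR adjusted p = 0.397), opposite to the F1 order. Fads2 did not follow, at 2.91, 6.05 and 5.92 CPM in controls and 4.56, 5.33 and 5.69 CPM in chlordecone libraries (0.07, SE 0.29). Acaca was at 26.4, 20.8 and 27.1 CPM in controls and 32.04, 37.5 and 28.7 CPM in chlordecone libraries, all 3 above the controls (0.40, SE 0.16, edgeR adjusted p = 0.455). Elovl6, Srebf1 and Sc5d, a late sterol desaturase, were likewise higher without overlap, with changes of 0.40, 0.17 and 0.26. That made 5 members without overlap, 4 higher and 1 lower, where 16.6% of all genes had none, 8.34% higher and 8.25% lower. Scd1 was at 182, 222 and 113 CPM in controls and at 92.5, 156 and 136 CPM in chlordecone libraries, which overlapped (-0.43, SE 0.27). Control 2, the highest for Scd1, also had the highest adipocyte sum, 299 CPM against 55.5 to 144 CPM in the other F3 libraries, and the part of adipocytes was not tested. The vas deferens and epididymis markers in the F3 table (5 of 7) summed to at most 0.341 CPM.

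Stard4 had the widest F3 range. It was at 13.2, 7.21 and 14.5 CPM in controls, against 47.0, 13.1 and 11.7 CPM in chlordecone 1, 2 and 3, so 1 library set the fitted change of 1.04 (SE 0.53, edgeR adjusted p = 0.510). Without chlordecone 1 the change was 0.09. The sterol arm as a whole had a median log2 ratio to controls of -0.01 in that library. Hmgcs1 was at 37.7 CPM there, inside the 28.7 to 44.2 CPM of the controls. Sqle, at 37.5 CPM against 24.0 to 35.4 CPM, was somewhat above the controls.

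Much of the F3 sterol variation ran between control libraries. Control 1 was the highest of the 6 libraries for 10 of 20 sterol members and control 2 the lowest for 11. The same libraries stood apart in tissue markers: smooth muscle markers summed to 1144 CPM in control 1, where 6 of 6 were lowest, and to 3889 CPM in control 2, where 5 of 6 were highest, and adipocyte and striated muscle sums were also highest in control 2 (299 and 291 CPM). Their part in the sterol values was not tested. The sterol arm summed to 782, 598 and 618 CPM in controls 1, 2 and 3 and to 690, 671 and 715 CPM in chlordecone 1, 2 and 3, so the exposed libraries lay inside the range of the controls. Srebf2, the sterol regulator, was at 126, 91.4 and 109 CPM in controls and 122, 125 and 125 CPM in chlordecone libraries, and Insig1, its retention factor, at 54.8, 41.5 and 41.7 CPM and at 49.5, 46.6 and 51.8 CPM. Fdps was lower in chlordecone libraries (38.7, 25.8 and 31.9 CPM against 24.0, 23.8 and 28.5 CPM), overlapping through control 2. The other sterol members (Mvk, Pmvk, Mvd, Idi1, Fdft1, Lss, Cyp51, Tm7sf2, Msmo1, Nsdhl, Hsd17b7, Ebp and Dhcr7) overlapped between groups, with changes from -0.34 (Mvd) to 0.17 (Msmo1). Of the other fatty acid members, Acly, Acacb, Fasn, Me1, Elovl5 and Scd2 overlapped with changes from -0.17 (Me1) to 0.18 (Scd2), Fasn being at 128, 85.9 and 84.7 CPM in controls and 97.0, 103 and 98.8 CPM in chlordecone libraries.

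The difference between the generations was tested as an interaction over 16980 genes. These were present in both tables and passed the filter applied to all libraries together. Seminal vesicle markers set the libraries of the generations apart, as given above, and the part of tissue content in the interaction was not tested. No member passed (0 of 32, edgeR), where 122 genes (0.718%) did, 0.253% with the F3 change above the F1 change and 0.465% below. An unadjusted p under 0.05 was reached by 8 members, 1 above and 7 below, against 16.9% of all genes, 7.04% above and 9.91% below. The F3 change minus the F1 change, on the log2 scale, was -1.90 for Scd1 (edgeR adjusted p = 0.0543), -4.25 for Fads1 (0.0606), -5.67 for Fads2 (0.0646), -2.28 for Acacb (0.111) and -1.83 for Elovl6 (0.149). In the sterol arm it was -1.35 for Fdps (edgeR adjusted p = 0.129), -1.16 for Mvd (0.174) and 0.99 for Ebp (0.127). DESeq2 called 6 of these 8, all but Elovl6 and Mvd, where it called 6.93% of genes. Without F1 chlordecone 2 edgeR passed 8 members (Tm7sf2 in place of Mvd) and 2320 genes, and without F3 control 3 it passed Scd1 alone among members (adjusted p = 0.0322). The share of all genes passing is not given for either fit, so these member counts are not set against a background.

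Other genes of the pathways, listed by role but with earlier results of these data known, gave 0 calls with edgeR in either generation. An unadjusted p under 0.05 was reached in F1 by 2 higher and 1 lower of the further sterol genes, 2 higher liver X genes and 4 higher fatty acid genes, and in F3 by 2 higher, by 1 higher and 1 lower, and by 0. Over all genes those shares were 7.93% higher and 3.6% lower in F1 and 4.97% higher and 5.64% lower in F3. DESeq2 called 2 of these genes in F1 and 0 in F3, against 4.12% and 1.49% of all genes. Of 15 further sterol synthesis and SREBP control genes, 8 were higher and 7 lower in F1 (median 0.12), and 11 higher and 4 lower in F3 (median 0.15). Mbtps1, the first protease to cut SREBP, had 30.2 ± 0.169 CPM in F1 controls and 40.2 ± 7.72 CPM in F1 chlordecone libraries, and 277 ± 57.3 and 329 ± 36.9 CPM in F3. Erlin2, which helps degrade HMG-CoA reductase, had 56.8 ± 0.839 and 45.2 ± 7.65 CPM in F1 and 94.3 ± 7.33 and 114 ± 11.5 CPM in F3. Of the liver X receptors and their targets, which answer to sterol excess, 6 of 7 tested were higher in F1 (median 0.77) and 5 of 8 in F3 (median 0.09). Nr1h2, a liver X receptor, had 11.4 ± 0.364 and 19.3 ± 7.13 CPM in F1 and 77.0 ± 3.53 and 64.0 ± 5.74 CPM in F3, and Lpcat3, a phospholipid-remodelling target, had 69.0 ± 7.05 and 48.0 ± 16.4 CPM in F1 and 68.3 ± 4.34 and 65.3 ± 4.34 CPM in F3.

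Of 21 other fatty acid and lipid synthesis genes tested, 14 were higher in F1 (median 0.38) and 8 in F3 (median -0.19). Tecr, the last enzyme of microsomal chain elongation, was at 8.07 and 7.45 CPM in F1 controls, against 48.6, 11.5 and 26.2 CPM in chlordecone 1, 2 and 3, which is again the library order of Fads1, Fads2 and Elovl6 (log2 fold change 1.89, edgeR adjusted p = 0.279, DESeq2 adjusted p = 0.0298). Hacd2, a dehydratase of the same elongation cycle, was at 62.1 and 58.2 CPM in controls and at 125, 40.3 and 152 CPM in chlordecone libraries. Besides Tecr, DESeq2 called Thrsp in this list in F1, a lipogenic protein abundant in adipose tissue that was named after its values were seen. It was at 0.157 and 0.562 CPM in controls, against 3.96, 5.998 and 3.08 CPM in chlordecone 1, 2 and 3, highest where the adipocyte markers were highest.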

How the data were processed

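Polyadenylated prostate RNA from 11 libraries was used. What the authors deposited is a table of raw counts for each generation, 1 row an Ensembl gene. The submitters' processing notes name, with no role or order, HTSeq 0.6.1, Bowtie2 2.1.0, TopHat2 2.0.14, DESeq2 1.6.3, bcl2fastq 2.17.1.14 and mm10. The library kit marks strand, per the labels' protocols. Whether counting used strand is not given in the sources used here, and 17 of 32 members overlap another gene model, not all of them marked above. C in a column name was taken as control and K as kepone, and 0 count columns stayed unmapped.

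Counts were tested within each generation with edgeR 4.0.16 in R 4.3.3: filterByExpr (minimum count 10, total 15), TMM, a two-sided quasi-likelihood F test and a Benjamini-Hochberg adjusted p under 0.05 over all genes tested. The interaction used 1 fit of both tables. The edgeR step was run on simulated data with the same dispersion for every gene. That run cannot show how the test performs at the spread seen in F1. DESeq2 1.42.0 was an alternative. Members, arms and lists were chosen with earlier results of these data known. All members are named, and of the other pathway lists the genes past the threshold and the 2 with the highest F3 CPM. Fads3, from those lists, is named in addition as a neighbour of Fads2. Positions and exon lengths are from GENCODE M21 (GRCm38).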

Additional observations from a re-analysis of the deposited data

Results flagged for a closer look

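Fads1 stood on opposite sides of its controls in the generations: all 3 F1 chlordecone libraries lay above both F1 controls and all 3 F3 chlordecone libraries lay below the 3 F3 controls. The F3 change minus the F1 change was -4.25 on the log2 scale, and the test of that difference missed the threshold (edgeR adjusted p = 0.0606). Fads1 was the sole member of the 32 without overlap in opposite directions. Among all genes, groups did not overlap for 16.2% higher and 15.1% lower in F1. In F3 the shares were 8.34% higher and 8.25% lower. The share of all genes in opposite directions was not counted. In F1 its library order was that of the summed vas deferens and epididymis, smooth muscle and urothelium markers, and their part in the difference was not tested.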

How the results depend on the processing

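In F1 the count of members past the threshold, 0 with edgeR, was 6 with DESeq2, 7 in 1 fit of all libraries, 0 to 9 leaving out 1 library (9 without chlordecone 2) and 2 without chlordecone 1 and 3, an alternative added after seeing the data. The count over all genes, 5, was 42 with total counts, 21 with no filter, 719 with DESeq2, 930 in 1 fit, 0 to 2604 leaving out 1 library and 1226 of 18669 without chlordecone 1 and 3, where the exposed arm is 1 library and the spread comes from the 2 controls alone. The F1 sterol median of 0.06 was -0.21 with total counts, -0.24 without chlordecone 1 and 3 and 0.01 to 0.24 leaving out 1 library, and the fatty acid median of 0.77 was 0.51 with total counts and 0.55 to 1.15 leaving out 1 library. In F3 the members' count was 0 in all 12 alternatives, and the count over all genes, 10, was 38 with no filter, 249 with DESeq2, 2 in 1 fit and 7 to 41 leaving out 1 library. The F3 sterol median of 0.09 was -0.025 to 0.19 leaving out 1 library, and the fatty acid median of 0.10 was 0.15 in 1 fit and 0.019 to 0.17 leaving out 1 library. Members past the threshold in the interaction, 0 with edgeR, were 6 with DESeq2 and 0 to 8 leaving out 1 library, and all genes, 122, were 1151 and 27 to 2320. The cause of these shifts was not tested.

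The replicate block gave 4 F1 members (Elovl6, Scd1, Fads1 and Fads2), 322 of 17804 F1 genes (296 higher, 26 lower), 49 interaction genes and an F3 fatty acid median of 0.13. Deviations from the group mean, over all genes tested, correlated between same-numbered control and chlordecone libraries at 0.06 and 0.07 in F1. In F3 the values were 0.21, -0.08 and -0.07. Pairs with different numbers ran from -0.07 to 0.04 in F1 and from -0.31 to 0.35 in F3. With 2 F1 controls the deviations of 1 mirror those of the other, so the F1 values cannot decide on pairing. The numbers were not taken as pairs.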

Other observations

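The F3 chlordecone libraries were more alike than the F3 controls. The coefficient of variation of CPM was larger among controls than among chlordecone libraries for 15 of 20 sterol and 10 of 12 fatty acid members, and for 71.5% of all genes tested. Srebf2 had a coefficient of variation of 15.8% in F3 controls and 1.73% in F3 chlordecone libraries, Hmgcs1 22.3% and 2.60%, and Dhcr7 22.6% and 2.24%. In F1 the relation ran the other way for all genes, with 29.5% more variable among the 2 controls.

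The F1 controls were close to each other, with a chi-square per gene of 16.6, while the other F1 pairs had 266 to 599. Single members still differed between them: Hsd17b7 was at 5.13 and 0.844 CPM and Srebf2 at 12.1 and 5.34 CPM.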
